A study of Saccharomyces cerevisiae BY4741 with 8 samples.

Results

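The yeast cell wall is built on a glucan scaffold, and its outer layer consists of mannoproteins, heavily glycosylated proteins of which many are attached to the glucan through a remnant of a glycosylphosphatidylinositol (GPI) anchor. The 10 genes described here encode such wall mannoproteins: *CWP1* (YKL096W), *CWP2* (YKL096W-A), *SED1* (YDR077W), *CCW12* (YLR110C), *SPI1* (YER150W), *TIR1* (YER011W), *TIR2* (YOR010C), *TIR3* (YIL011W), *TIR4* (YOR009W) and *DAN1* (YJR150C). They were taken by name from the 6388 genes on the arrays, with earlier results of these data known, and each was represented by 1 spot per array. *CWP1*, *CWP2*, *SED1* and *CCW12* encode structural proteins of the wall of growing or resting cells, and *SPI1* encodes a wall protein known for its induction by weak acids and in stationary phase. The *TIR* genes and *DAN1* belong to a group known for expression at low oxygen, when the wall exchanges one set of mannoproteins for another. In the RefSeq annotation *CWP1* and *CWP2* are next to each other on chromosome XI, *TIR2* and *TIR4* are neighbours on chromosome XV, and *DAN1* lies beside its relative *DAN4* on chromosome X.

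The arrays compared transcript levels between cells exposed to KP1019, an anticancer ruthenium complex, and cells left without drug. The strain in all groups was BY4741, a haploid laboratory strain of mating type a with auxotrophic deletions, grown with shaking in synthetic complete medium with glucose. Cultures in early log phase were divided, and 1 part received KP1019 to 80 or to 40 μg/ml for 3 h while its untreated partner was grown for the same time. There were 2 biological replicates at each dose. Each replicate was hybridized to 2 spotted arrays on which the Cy5 and Cy3 dyes of treated and untreated cDNA were exchanged (dye reversal, arrays A and B), which makes 8 arrays. Treated cDNA carried Cy3 on array A and Cy5 on array B of replicate 1 at 80 μg/ml and of replicate 2 at 40 μg/ml, and the dyes were the other way round in the remaining replicates. Each dose had arrays of its own, so that dose and array set cannot be told apart.

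The authors deposited the brightness (intensity) of each spot in both channels without normalization. The median treated intensity was 293.7 to 3736 across the 8 arrays, and 67.5% to 98.5% of gene spots in the treated channel and 86.4% to 99.2% in the untreated channel exceeded the median of the blank spots by over 3 median absolute deviations (called above blank here). Log2 ratios are given as treated over untreated after background correction and loess normalization within each array, so that 1 unit is a 2-fold difference. The arrays of a dye reversal share the same RNA, and they were averaged to 1 value per biological replicate before the test with limma. P-values are two-sided and adjusted over all 6388 genes by the Benjamini-Hochberg method, and a gene passed at an adjusted p under 0.05. Replicate 1 at 40 μg/ml had the widest ratios, with a median absolute deviation of 0.679 across genes, against 0.32 to 0.389 in the other 3 replicates. The strain was checked through genes that are deleted in it: *URA3* was above blank in 1 of 16 channels and *LEU2* in 8 of 16, whereas *MET17*, also deleted in BY4741, was above blank in 16 of 16, and the reason was not tested. Genes specific to mating type a (*STE2*, *BAR1* and *MFA1*) had median intensity percentiles of 32.6 to 88.2 within a channel, and those specific to mating type alpha (*STE3*, *MF(ALPHA)1* and *SAG1*) of 28.3 to 58.1. In the order named, the former were above blank in 14, 12 and 16 of 16 channels and the latter in 15, 15 and 16. This measure did not separate the mating types.

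In cells treated with 80 μg/ml KP1019, 1 of the 10 mannoprotein genes passed the test: *CWP1* was 2.06-fold lower than in untreated cells (log2 ratio -1.04 ± 0.19, SD, n = 2). The arrays measured whole cultures, so that less *CWP1* RNA per cell and fewer cells that express it cannot be told apart. The other 9 genes did not pass at 80 μg/ml, and none of the 10 passed at 40 μg/ml or between the doses. Across all genes of the arrays, 3.52% passed at 80 μg/ml, with 2.11% higher and 1.41% lower. At 40 μg/ml 23.3% of all genes passed, 13.0% higher and 10.3% lower, and between the doses 0.141% passed, 0.0470% higher and 0.0939% lower at 80 μg/ml. Without adjustment, limma p-values were under 0.05 for 2 of the 10 genes at 80 μg/ml (18.5% of all genes), for 1 at 40 μg/ml (38.4%) and for 1 between the doses (20.9%). The criteria of the study's methods ask for at least 3.5-fold in both replicates, with limits on their spread. Applied to the ratios normalized here, not to those of the paper, they were met by 0 of the 10 genes at either dose. Of all genes, 0.235% met them at the higher and 0.376% at the lower dose. The median log2 ratio of the 10 genes was 0.04 at 80 μg/ml and -0.01 at 40 μg/ml, beside -0.0026 and -0.01 for all genes at the same doses. Their median size without sign was 0.15 at both doses, beside 0.19 for all genes at the higher and 0.33 at the lower dose.

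**Figure D1:**
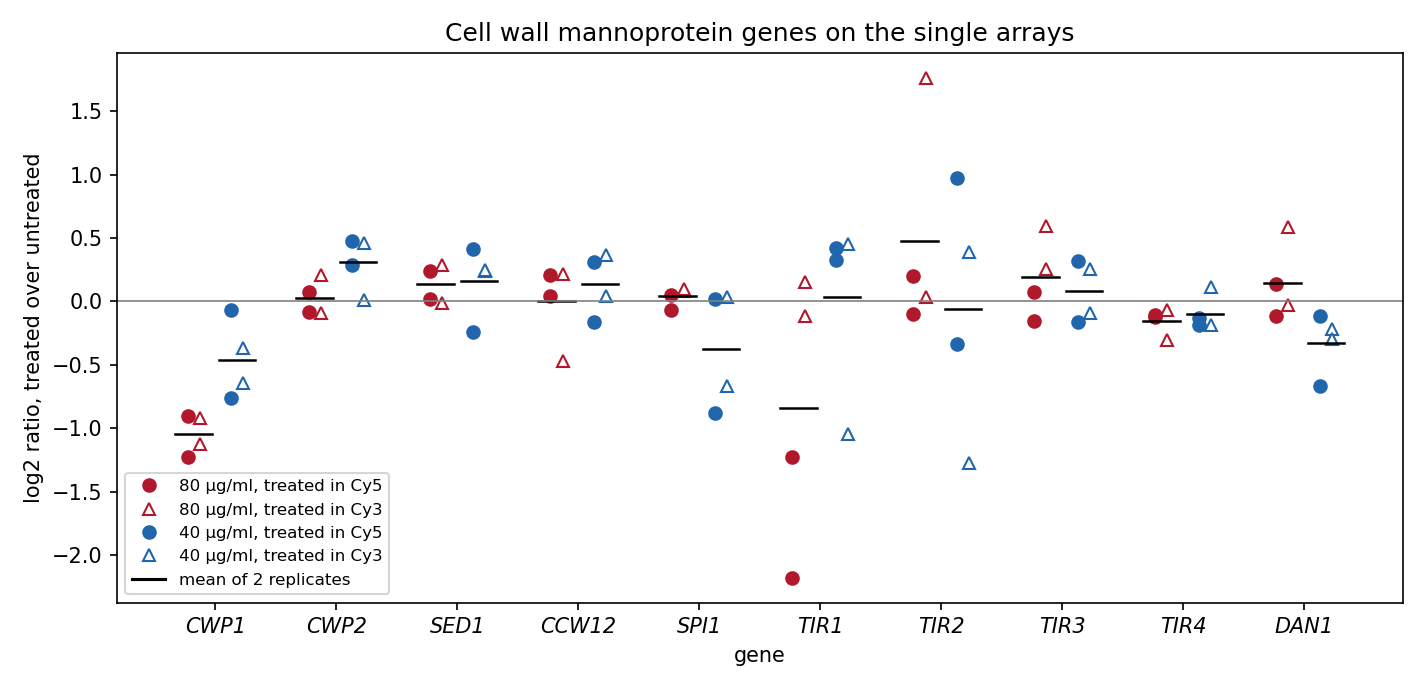
Log2 ratio (treated over untreated, vertical axis) of each of the 10 genes on the single arrays, with 80 μg/ml in red left of 40 μg/ml in blue, filled circles for treated cDNA in Cy5, open triangles for treated cDNA in Cy3, and black bars for the mean of the 2 biological replicates. *CWP1* lies below 0 on all 8 arrays, and the points of *TIR1* at 80 μg/ml separate by dye.

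*CWP1* encodes a GPI-anchored wall mannoprotein that is known to be deposited at the birth scar of daughter cells. At 80 μg/ml its log2 ratio was -0.92 and -0.91 on arrays A and B of replicate 1 and -1.22 and -1.12 on those of replicate 2. The 40 μg/ml arrays gave -0.76 and -0.64 in replicate 1 and -0.37 and -0.07 in replicate 2. *CWP1* was thus lower in treated cells on every array, and the arrays of the 2 doses did not overlap, which was also the case for 24.5% of all genes. The spot was above blank in both channels of all 8 arrays, with an unnormalized treated intensity of 3652 to 12184 and an untreated intensity of 6128 to 25769 at 80 μg/ml, and with 818.5 to 3646 treated and 2327 to 7495 untreated at 40 μg/ml. Within its channel, the *CWP1* spot was brighter than 79.6% to 87.5% of gene spots in treated cells and 92.4% to 95.4% in untreated cells of the 80 μg/ml arrays, so that its ranks in treated and untreated cells did not overlap there. The dye made little difference: the mean ratio at 80 μg/ml was -1.07 with treated cDNA in Cy5 and -1.02 in Cy3.

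The mean *CWP1* ratio at 80 μg/ml was -1.04 ± 0.19 (SD, n = 2), with a 95% interval of -1.48 to -0.61 and an adjusted p of 0.025 with limma. The mean at 40 μg/ml was -0.46 ± 0.34 (SD, n = 2), with an interval of -0.89 to -0.03 and a limma adjusted p of 0.111, and *CWP1* did not pass. The difference between the doses was -0.58 (interval -1.20 to 0.03, limma adjusted p = 0.254), so that a stronger reduction at the higher dose was not shown. With replicate 1 of 80 μg/ml left out *CWP1* no longer passed (-1.17, limma adjusted p = 0.0876), nor with replicate 2 left out (-0.91, limma adjusted p = 0.361), and in both cases the spread came from the 40 μg/ml replicates. Without replicate 2 of 40 μg/ml, the replicate nearer to 0, the *CWP1* ratio at that dose was -0.70.

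*CWP2* encodes a major structural mannoprotein of the wall and lies beside *CWP1* in the genome. Its log2 ratio at 80 μg/ml was -0.09 and -0.08 on the arrays of replicate 1 and 0.07 and 0.21 on those of replicate 2. The arrays at 40 μg/ml gave 0.47 and 0.46 in replicate 1 and 0.01 and 0.29 in replicate 2. All 4 arrays at 40 μg/ml were therefore above 0, as for 25.0% of all genes, while those at 80 μg/ml lay on both sides of 0. The means were 0.03 ± 0.16 at 80 μg/ml and 0.31 ± 0.22 at 40 μg/ml (SD, n = 2 each), with limma adjusted p-values of 0.955 and 0.229. *CWP2* was among the brightest spots in both treated and untreated cells, brighter than 97.9% to 100% of gene spots at 80 μg/ml and than 99.7% to 100% at 40 μg/ml. No test of the difference between *CWP1* and *CWP2* was made.

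*SED1* encodes an abundant GPI-anchored wall protein that is known to strengthen the wall in stationary phase and under stress. The arrays gave log2 ratios of -0.02, 0.02, 0.24 and 0.29 at 80 μg/ml, in the order 1A, 1B, 2A and 2B, and of -0.24, 0.24, 0.25 and 0.41 at 40 μg/ml. The doses overlapped almost completely. The mean was 0.13 ± 0.19 at 80 μg/ml and 0.16 ± 0.24 at 40 μg/ml (SD, n = 2 each), with limma adjusted p-values of 0.768 and 0.53.

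*CCW12* encodes a small mannoprotein that is abundant in newly made wall. In the same array order its ratios were 0.22, 0.04, 0.21 and -0.47 at 80 μg/ml and -0.16, 0.37, 0.04 and 0.31 at 40 μg/ml. At each dose 1 array was below 0 and the other 3 were above it. The means were -0.0002 ± 0.18 at 80 μg/ml and 0.14 ± 0.05 at 40 μg/ml (SD, n = 2 each), with limma adjusted p-values of 1 and 0.579.

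*SPI1* gave log2 ratios of 0.08, 0.05, -0.07 and 0.10 at 80 μg/ml, the narrowest spread of the 10 genes at this dose (mean 0.04 ± 0.04, SD, n = 2, limma adjusted p = 0.947). Its replicates parted at 40 μg/ml: 0.02 and 0.03 on the arrays of replicate 1, and -0.67 and -0.88 on those of replicate 2. Both dyes gave the lower value in replicate 2 and neither in replicate 1. The mean of -0.37 ± 0.57 (SD, n = 2) did not pass (limma adjusted p = 0.238). With replicate 2 as the single replicate of 40 μg/ml, the *SPI1* ratio was -0.77, and with replicate 1 alone it was 0.03, so that 1 replicate decides the value.

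**Figure D2:**
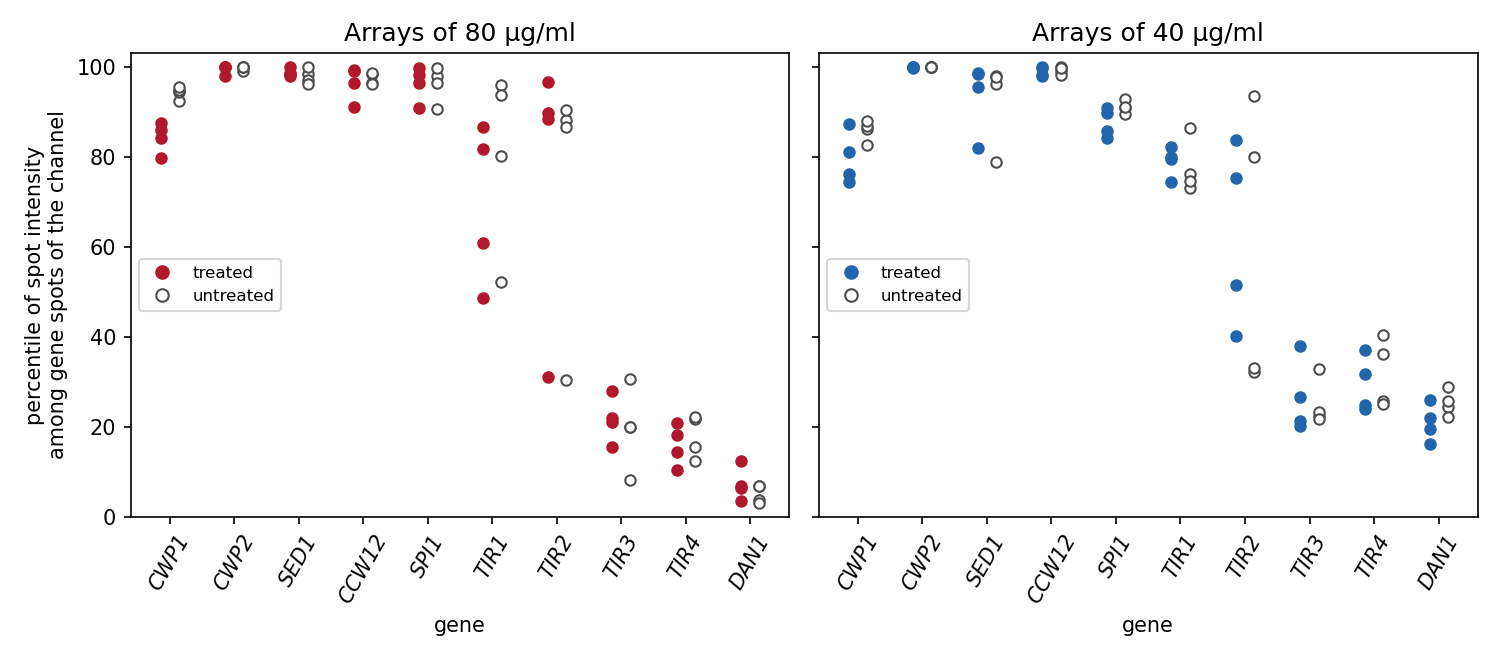
Percentile of the spot intensity of each gene among the gene spots of the same channel (vertical axis), in treated cells (filled, left) and untreated cells (open, right), with 4 arrays at 80 μg/ml in the left panel and 4 at 40 μg/ml in the right panel. *CWP2*, *SED1*, *CCW12* and *SPI1* lie near the top of the range, *TIR3*, *TIR4* and *DAN1* lie low, and *TIR1* and *TIR2* vary between arrays.

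The percentiles of spot intensity within a channel show how each spot was measured, but spots of different genes hold different DNA, so that they do not order the transcript levels of the genes. *CWP2*, *CCW12*, *SED1* and *SPI1* had percentiles of at least 78.9 in both channels of every array. *TIR3*, *TIR4* and *DAN1* had percentiles of 3.17 to 40.4, and of the 10 genes *TIR4* and *DAN1* were the ones not above blank in every channel (*TIR4* in treated cells on 3 of 4 arrays at 40 μg/ml). The *TIR1* and *TIR2* spots were neither steadily bright nor steadily dim, with ranges of 48.6 to 96 for *TIR1* and 30.3 to 96.6 for *TIR2* at 80 μg/ml.

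*TIR1* encodes a wall mannoprotein known for induction by cold shock and anaerobic growth. At 80 μg/ml its log2 ratio was 0.15 on array A and -1.23 on array B of replicate 1, and -2.18 on array A and -0.12 on array B of replicate 2. The 2 low values came from the arrays on which treated cDNA carried Cy5 (mean -1.70), and the arrays with treated cDNA in Cy3 had a mean of 0.02. On the arrays with treated cDNA in Cy5 the unnormalized intensity of *TIR1* was 11382 treated and 28050 untreated in replicate 1, and 3252 treated and 22616 untreated in replicate 2. On the Cy3 arrays it was 2769 treated and 2058 untreated in replicate 1, and 3612 treated and 3391 untreated in replicate 2. The gap of -1.72 between the dye orientations was larger in size than the gap of 99.5% of genes. Averaged over the dyes, *TIR1* had a mean of -0.84 ± 0.43 (SD, n = 2) with an interval of -1.38 to -0.31, and it did not pass (limma adjusted p = 0.0965).

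The arrays at 40 μg/ml gave 0.42 and -1.05 for *TIR1* in replicate 1 and 0.45 and 0.33 in replicate 2. Array B of replicate 1 stood far below the other 3, which lay between 0.33 and 0.45. The dye gap was 0.67 here, of the other sign than at 80 μg/ml and larger in size than in 95.5% of genes. The mean was 0.04 ± 0.50 (SD, n = 2, limma adjusted p = 0.925). The difference between the doses was -0.88 with an interval of -1.64 to -0.13, and it did not pass either (limma adjusted p = 0.193). The call of *TIR1* at 80 μg/ml depended on the analysis: it passed in 6 of 14 alternative analyses, with limma adjusted p-values between 0.00121 and 0.935 over all of them. It passed, with the same ratio, when the 80 μg/ml replicates were fitted alone (limma adjusted p = 0.00129), which is also the result with either replicate of 40 μg/ml left out.

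*TIR2*, a close relative of *TIR1* that is also known for induction by cold shock, gave 1.76 and 0.20 on the arrays of replicate 1 and -0.10 and 0.04 on those of replicate 2 at 80 μg/ml. Array A of replicate 1, with treated cDNA in Cy3, stood far above the other 3. The arrays of replicate 1 at 40 μg/ml gave 0.97 and -1.28 and those of replicate 2 gave 0.39 and -0.34, so that the arrays of each dye reversal had opposite signs. The dye gap was -0.85 at 80 μg/ml and 0.76 at 40 μg/ml, larger in size than in 96.3% of genes at the higher and 96.8% at the lower dose. The means were 0.47 ± 0.72 at 80 μg/ml and -0.06 ± 0.12 at 40 μg/ml (SD, n = 2 each), with limma adjusted p-values of 0.355 and 0.878. The small SD at 40 μg/ml is that of the averaged pairs and does not show the disagreement of the single arrays within them.

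*TIR3* is required for growth without oxygen. Its log2 ratios were 0.59, 0.08, -0.16 and 0.25 at 80 μg/ml, in the order 1A, 1B, 2A and 2B, and 0.32, 0.25, -0.09 and -0.17 at 40 μg/ml. At both doses replicate 1 lay above replicate 2. The means were 0.19 ± 0.20 at 80 μg/ml and 0.08 ± 0.29 at 40 μg/ml (SD, n = 2 each), with limma adjusted p-values of 0.657 and 0.782.

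*TIR4*, also an anaerobically expressed mannoprotein gene, gave -0.07, -0.11, -0.13 and -0.30 at 80 μg/ml and -0.18, 0.11, -0.18 and -0.13 at 40 μg/ml. The values at 80 μg/ml were all below 0, as for 22.0% of all genes, but small. None of the 10 genes was above 0 on all 4 arrays of that dose (22.9% of all genes). The means were -0.15 ± 0.09 at 80 μg/ml and -0.10 ± 0.09 at 40 μg/ml (SD, n = 2 each), with limma adjusted p-values of 0.704 and 0.693.

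*DAN1* encodes a wall mannoprotein known to be repressed in the presence of oxygen. Its spot was dim at 80 μg/ml, with percentiles of 3.17 to 12.4, and it was above blank in treated cells on 3 of 4 arrays and in untreated cells on 2 of 4. On the 40 μg/ml arrays it was above blank in treated cells on 3 of 4 and in untreated cells on 4 of 4. The log2 ratios were 0.59, -0.11, 0.14 and -0.03 at 80 μg/ml, and -0.67, -0.22, -0.30 and -0.12 at 40 μg/ml. The arrays at 40 μg/ml were all below 0, as for 24.5% of all genes, and lay just below the lowest array at 80 μg/ml. The means were 0.14 ± 0.13 at 80 μg/ml and -0.33 ± 0.17 at 40 μg/ml (SD, n = 2 each), with limma adjusted p-values of 0.73 and 0.192. With the background subtracted instead of modelled, the ratio of this dim spot at 80 μg/ml was 1.91 without passing (limma adjusted p = 0.214).

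**Figure D3:**
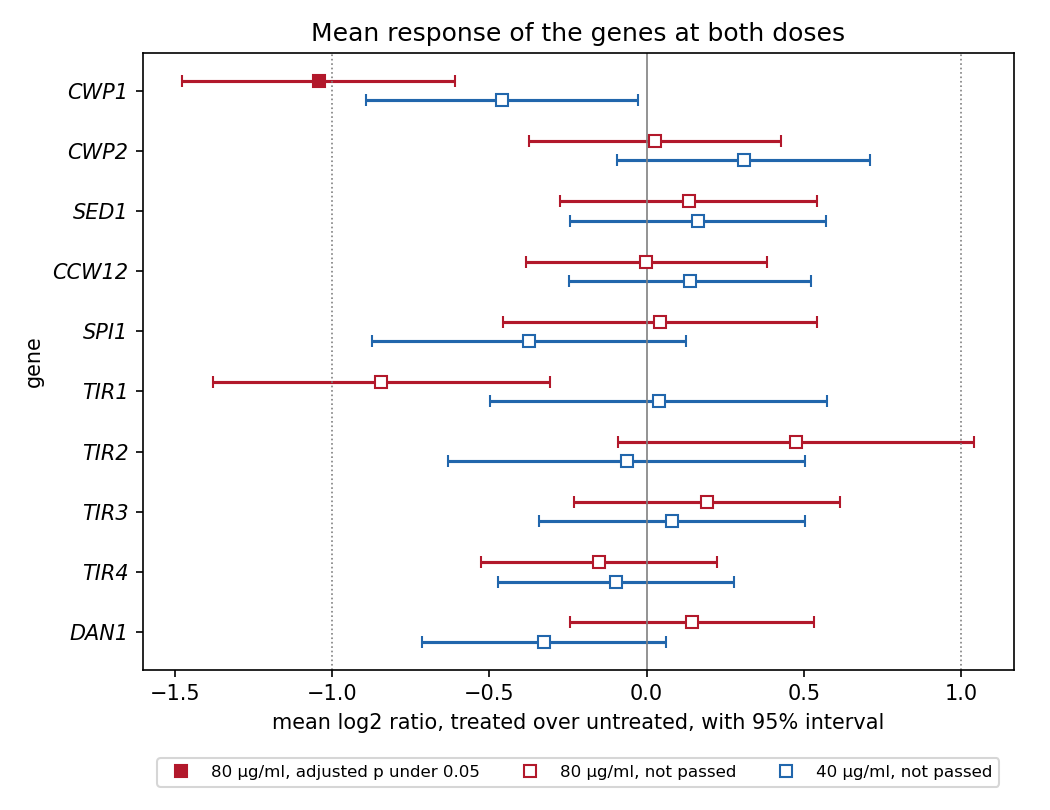
Mean log2 ratio (treated over untreated) of each gene with its 95% interval from limma, 80 μg/ml in red above 40 μg/ml in blue, filled where the adjusted p was under 0.05. *CWP1* at 80 μg/ml is the only filled point, and dotted lines mark a 2-fold difference in either direction.

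The intervals show what the 2 replicates per dose could resolve. Their half-width was 0.37 to 0.57 at a single dose and 0.53 to 0.80 for the difference between doses. The intervals of 7 of the 10 genes at 80 μg/ml lay wholly within a 2-fold difference in either direction, and the exceptions were *CWP1*, *TIR1* and *TIR2*. The 7 include *DAN1*, whose dim spot gave 0.14 with the normexp offset and 1.91 with the background subtracted, so that its interval does not bound its change. At 40 μg/ml all 10 did, where *DAN1* had -0.33 with the offset and -0.52 with the background subtracted. Between the doses 5 of 10 did, so that a 2-fold difference in response between doses was not resolved for the other 5. The intervals were computed from averaged dye pairs. Single arrays at 40 μg/ml ran from -1.28 to 0.97 for *TIR2* and from -1.05 to 0.45 for *TIR1*, which their intervals do not show. *CWP2*, within 2-fold at both doses, had 36696 treated and 41727 untreated on array A of replicate 1 at 80 μg/ml. The brightest spots of that array had 41116 and 42462. *SED1* had 40119 treated and 39510 untreated on array B of replicate 1 at 80 μg/ml, where the brightest spots had 45819 and 46716. *CCW12* had 39970 untreated on array B of replicate 1 at 40 μg/ml, the highest untreated intensity of that array. Whether brightness limited the ratios of these genes was not tested. For 4 of the 10 genes, *CWP1*, *CWP2*, *TIR1* and *DAN1*, the replicates of 80 μg/ml did not overlap those of 40 μg/ml, against 56.5% of all genes.

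**Figure D4:**
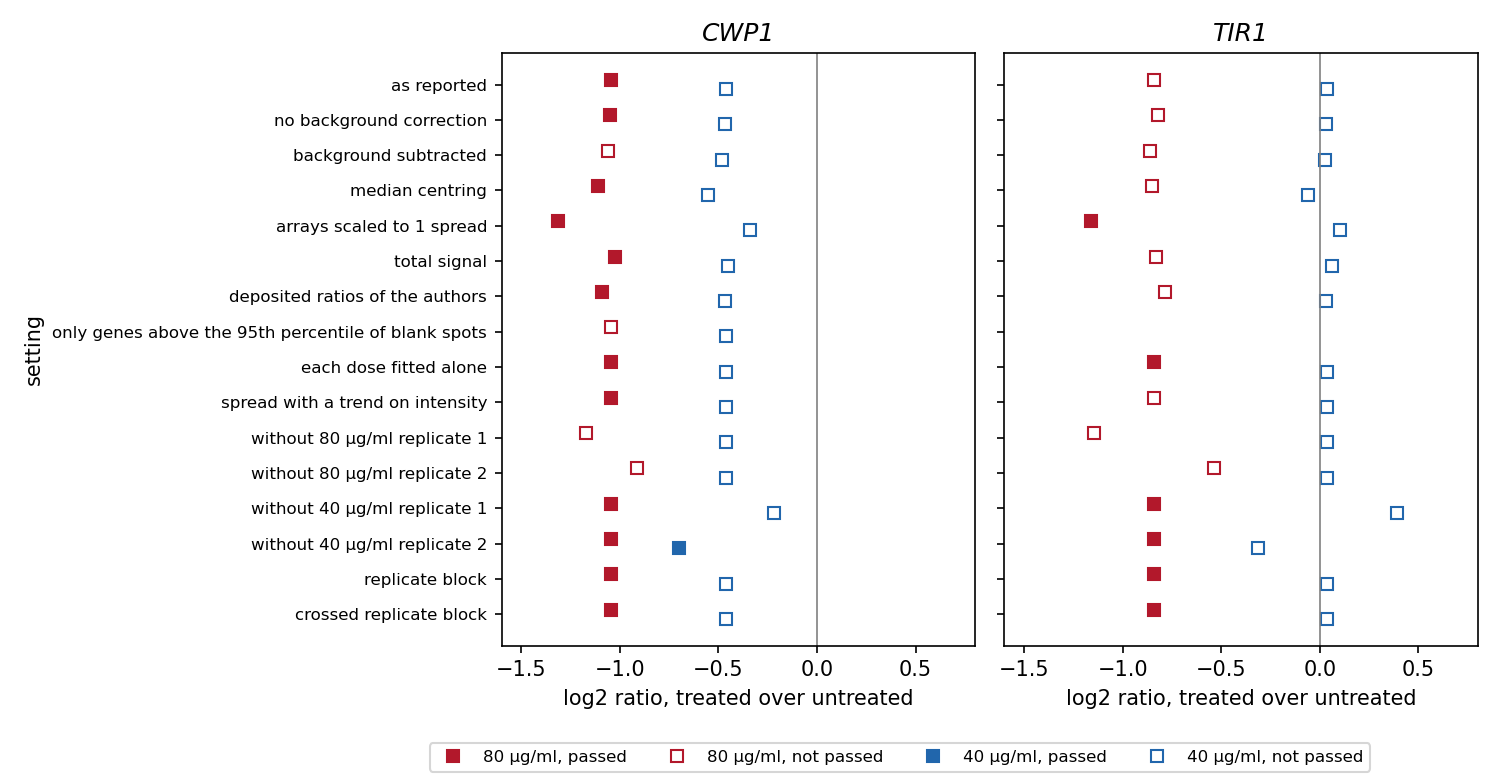
Log2 ratio of *CWP1* (left) and *TIR1* (right) under each alternative analysis, one per line, with 80 μg/ml in red above 40 μg/ml in blue and filled squares where the adjusted p was under 0.05. *CWP1* at 80 μg/ml stays between -1.32 and -0.91, and *TIR1* has no value under the filter on dim spots (95th percentile of blanks), which it did not pass.

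The genes whose ratios over the 8 arrays lay nearest to those of *CWP1* were *HNM1*, which encodes the choline transporter, *PSA1*, which encodes the enzyme that makes GDP-mannose, and *SET2*, which encodes a histone methyltransferase. The root mean square difference over the 8 arrays was 0.10 for *HNM1*, 0.20 for *PSA1* and 0.21 for *SET2*. Their mean log2 ratios at 80 μg/ml were -0.98, -1.06 and -0.945, in that order, and at 40 μg/ml -0.42, -0.42 and -0.64. Genes nearest to *TIR1* and *TIR2* lay farther away. The nearest to *TIR1* were *GGA1* at 0.59, *BUB1* at 0.61 and *MEP3* at 0.62. The nearest to *TIR2* were *SPC97* at 0.45, *SSE1* at 0.51 and *AST1* at 0.52.

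Other genes of the wall and of its regulation were examined on 7 lists of 73 genes together. There were 4 calls at 80 μg/ml, where 3.52% of all genes passed, and 20 at 40 μg/ml, where 23.3% passed. None of these 24 calls held with the background subtracted in place of the normexp correction, where limma adjusted p-values were 0.0612 to 0.231 at the higher and 0.051 to 0.114 at the lower dose and where 0.626% and 1.60% of all genes passed. Of 13 other genes of wall mannoproteins, 2 passed as higher (2.11% of all genes) and 1 as lower (1.41%) at 80 μg/ml, and 7 passed as higher (13.0%) and 0 as lower (10.3%) at 40 μg/ml. Their median log2 ratio was 0.29 at 80 μg/ml and 0.67 at 40 μg/ml, beside -0.0026 and -0.01 for all genes. *PST1*, a GPI protein gene known for induction by wall damage, was lower at 80 μg/ml, with replicates at -1.52 and -1.46 and a mean of -1.49 ± 0.04 (SD, n = 2, limma adjusted p = 0.00388). It was below 0 on 4 of 4 arrays and passed in 13 of 14 alternative analyses, the exception being the subtracted background (-1.56, limma adjusted p = 0.0612). At 40 μg/ml its mean was -0.50 ± 0.15 (SD, n = 2, limma adjusted p = 0.0615).

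*TIP1*, a temperature-shock mannoprotein gene related to the *TIR* genes, was higher in treated cells at both doses and on 4 of 4 arrays each. Its replicates were 0.96 and 0.81 at 80 μg/ml and 0.67 and 1.09 at 40 μg/ml, with means of 0.88 ± 0.10 and 0.88 ± 0.30 (SD, n = 2 each) and limma adjusted p-values of 0.0375 and 0.0157. *TIP1* passed at 80 μg/ml in 8 of 15 alternative analyses. It did not with replicate 1 of that dose left out (limma adjusted p = 0.557), with replicate 2 left out (0.306), with the background subtracted (0.212), with the filter on dim spots (0.08), with median centering (0.0611), with the deposited ratios (0.0606) or with total signal (0.0528). At 40 μg/ml it passed in 14 of 15, all but the subtracted background (limma adjusted p = 0.0734). *YGP1*, a secreted glycoprotein gene known for induction by nutrient limitation, was also higher, at 0.96 ± 0.20 at 80 μg/ml and 0.91 ± 0.19 at 40 μg/ml (SD, n = 2 each), with limma adjusted p-values of 0.0255 and 0.0138. *YGP1* did not pass at 80 μg/ml with either replicate of that dose left out (limma adjusted p = 0.137 without replicate 1 and 0.51 without replicate 2), with the background subtracted (0.181) or with the filter on dim spots (0.0658). Its call at 40 μg/ml was lost with the background subtracted (limma adjusted p = 0.0685).

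*DAN4*, the neighbour and relative of *DAN1*, had replicates at -0.57 and 0.26 at 80 μg/ml (mean -0.16 ± 0.59, SD, n = 2, limma adjusted p = 0.798). It was higher in treated cells at 40 μg/ml, with replicates at 1.06 and 0.64 and a mean of 0.85 ± 0.30 (SD, n = 2, limma adjusted p = 0.036). Without replicate 1 at 40 μg/ml, *DAN4* did not pass (0.64, limma adjusted p = 0.0821), nor with the background subtracted (limma adjusted p = 0.104). The difference of *DAN4* between the doses was -1.01 and did not pass (limma adjusted p = 0.168).

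The flocculin genes *FLO11* and *FLO1*, whose products mediate adhesion between cells, passed at 40 μg/ml. *FLO11* had 0.80 ± 0.16 at 80 μg/ml and 1.21 ± 0.45 at 40 μg/ml (SD, n = 2 each), with limma adjusted p-values of 0.0729 and 0.00951. *FLO1* had 0.33 ± 0.10 at 80 μg/ml and 1.15 ± 0.71 at 40 μg/ml (SD, n = 2 each), with limma adjusted p-values of 0.531 and 0.0169. With the background subtracted both calls were lost (limma adjusted p = 0.051 for *FLO11* and 0.0745 for *FLO1*), and without replicate 1 of 40 μg/ml the ratio of *FLO1* was 0.65 (limma adjusted p = 0.0258). *FLO5*, of the same family, also passed at 40 μg/ml (0.68, limma adjusted p = 0.0433), in 7 of 14 alternative analyses, and without replicate 1 its ratio was 0.36 (limma adjusted p = 0.205). The last of the 7 genes, *PAU23*, had a mean of 0.67 at 40 μg/ml (limma adjusted p = 0.0263) and passed in 9 of 14 alternative analyses. The *FLO1* spot may also bind cDNA of its near-identical paralogs *FLO5* and *FLO9*.

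The seripauperin (*PAU*) genes encode short relatives of the *TIR* and *TIP1* products and are known for expression at low oxygen. Of 7 on the list, 0 passed at 80 μg/ml (median log2 ratio 0.43), where 5 had an unadjusted limma p under 0.05 (18.5% of all genes), and 4 passed as higher at 40 μg/ml (median 0.59), against 13.0% of all genes. *PAU5* had a mean of 1.21 at 40 μg/ml (limma adjusted p = 0.018), *PAU3* of 1.00 (0.0162), *PAU7* of 0.69 (0.0235) and *PAU2* of 0.59 (0.0376). These genes had at 80 μg/ml 0.31, 0.50, 0.56 and 0.42, in that order. With the background subtracted none of them passed at 40 μg/ml (limma adjusted p = 0.0824 for *PAU5*, 0.0717 for *PAU3*, 0.059 for *PAU7* and 0.0978 for *PAU2*), and without replicate 1 of 40 μg/ml the ratio of *PAU5* was 0.79 (limma adjusted p = 0.0313). *PAU2* passed in 7 of 14 alternative analyses. It did not pass at 40 μg/ml without replicate 1 of that dose (limma adjusted p = 0.0803), with either replicate of 80 μg/ml left out (0.104), with median centering (0.117) or with the deposited ratios (0.0777). The family, to which *PAU23* of the wall list also belongs by name, is close to identical in sequence. Spots of these genes are therefore uncertain as measures of single genes and are not independent of each other.

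**Figure D5:**
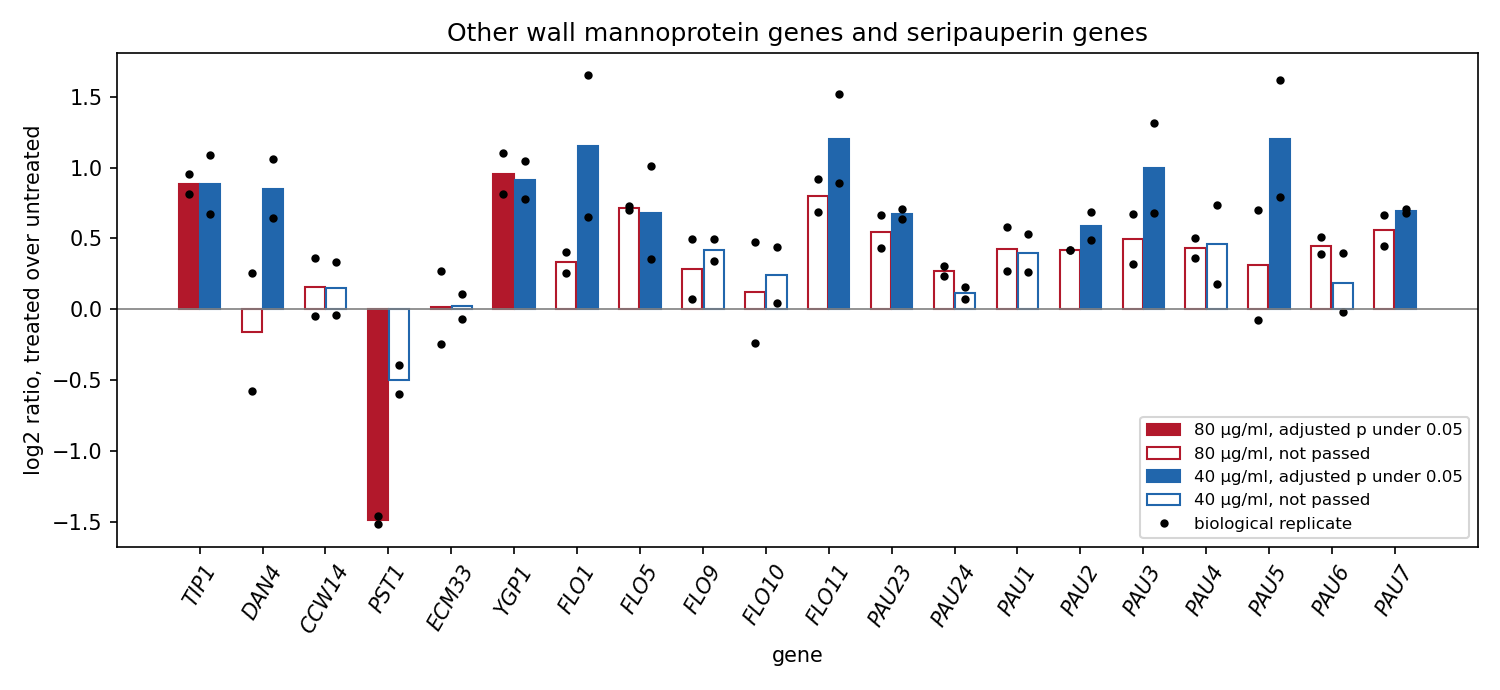
Mean log2 ratio (treated over untreated, bars) and the 2 biological replicates (dots) of 13 other wall mannoprotein genes and 7 seripauperin genes, 80 μg/ml in red left of 40 μg/ml in blue, filled where the adjusted p was under 0.05. *TIP1* and *YGP1* are filled at both doses, *PST1* only at 80 μg/ml, and most *FLO* and *PAU* bars lie above 0.

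The regulators of *DAN* and *TIR* genes were measured on the same arrays. Of 8, 1 passed as higher at 80 μg/ml (2.11% of all genes) and 3 passed as lower at 40 μg/ml (10.3%), with median log2 ratios of 0.0075 and -0.075 at these doses. *SUT1*, a transcription factor of sterol uptake at low oxygen, had a mean of 1.17 ± 0.35 at 80 μg/ml (SD, n = 2, limma adjusted p = 0.0249) and of 0.34 ± 0.39 at 40 μg/ml (SD, n = 2, limma adjusted p = 0.267). It did not pass at 80 μg/ml without replicate 2 of that dose (0.92, limma adjusted p = 0.351) or with the background subtracted (0.231). *MOT3*, a repressor of *DAN* and *TIR* genes in aerobic cells, had -0.26 ± 0.11 at 80 μg/ml and -0.72 ± 0.03 at 40 μg/ml (SD, n = 2 each), with limma adjusted p-values of 0.445 and 0.0203. It did not pass at 40 μg/ml with the background subtracted (limma adjusted p = 0.0708). The general corepressor genes *CYC8* and *TUP1* had -0.61 and -0.45 at 80 μg/ml, without passing, and were lower at 40 μg/ml, at -0.62 (limma adjusted p = 0.0319) and -0.56 (0.0445). *CYC8* did not pass at 40 μg/ml without replicate 1 of that dose (limma adjusted p = 0.0535), with either replicate of 80 μg/ml left out (0.0835) or with the background subtracted (0.0867). *TUP1* passed at 40 μg/ml in 6 of 14 alternative analyses. It did not with either replicate of 80 μg/ml left out (limma adjusted p = 0.126), which is also the fit of the dose alone, with the background subtracted (0.11), with no background correction (0.0775), with the deposited ratios (0.0735), with a trend on intensity (0.0659) or with the replicate block (0.0537). Of 4 other hypoxia-induced genes (*ANB1*, *HEM13*, *COX5B* and *AAC3*), 0 passed by limma at 80 μg/ml (3.52% of all genes) and 0 at 40 μg/ml (23.3%). An unadjusted limma p under 0.05 was found for 2 at 80 μg/ml (18.5% of all genes) and 1 at 40 μg/ml (38.4%). The median log2 ratios of these 4 genes were -0.38 at 80 μg/ml and -0.31 at 40 μg/ml.

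Of 7 transcription factors of stress or wall genes, 0 had an unadjusted limma p under 0.05 at 80 μg/ml (18.5% of all genes). Their median log2 ratios were -0.14 at 80 μg/ml and -0.04 at 40 μg/ml. After adjustment 0 passed by limma at 80 μg/ml (3.52% of all genes) and 1 passed at 40 μg/ml (23.3%). This was *SWI4*, which encodes the DNA-binding subunit of a G1/S regulator that also controls wall genes, at -0.31 ± 0.59 at 80 μg/ml and 1.16 ± 0.47 at 40 μg/ml (SD, n = 2 each, limma adjusted p = 0.588 and 0.0181, and 0.0734 at 40 μg/ml with the background subtracted). Its difference between the doses of -1.46 did not pass (limma adjusted p = 0.136).

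Mannoproteins are mannosylated in the endoplasmic reticulum and the Golgi, and many receive a GPI anchor. Of 17 protein mannosylation genes, 0 passed by limma at 80 μg/ml (4 with an unadjusted p under 0.05, beside 18.5% of all genes), and 2 were higher and 2 lower at 40 μg/ml, beside 13.0% and 10.3% of all genes, with median log2 ratios of -0.13 and -0.08 at these doses. The protein O-mannosyltransferase gene *PMT1* had -0.43 ± 0.25 at 80 μg/ml and -1.22 ± 0.39 at 40 μg/ml (SD, n = 2 each, limma adjusted p = 0.293 and 0.00878), and *PMT2*, the gene of its partner enzyme, had -0.63 ± 0.24 at 80 μg/ml and -0.66 ± 0.20 at 40 μg/ml (SD, n = 2 each, limma adjusted p = 0.105 and 0.0351). *PMT2* did not pass at 40 μg/ml without replicate 1 of that dose (limma adjusted p = 0.0821), with the background subtracted (0.104) or with either replicate of 80 μg/ml left out (0.0607). In contrast, *PMT6*, of the same enzyme family, had 0.10 ± 0.05 at 80 μg/ml and 1.04 ± 0.30 at 40 μg/ml (SD, n = 2 each, limma adjusted p = 0.841 and 0.0101). The calls of *PMT1* and *PMT6* were lost with the background subtracted (limma adjusted p = 0.0563 and 0.0607). *MNN5*, a mannosyltransferase gene of the Golgi, had 0.02 ± 0.18 at 80 μg/ml and 0.87 ± 0.55 at 40 μg/ml (SD, n = 2 each, limma adjusted p = 0.976 and 0.0287), and did not pass without replicate 1 of 40 μg/ml (0.48, limma adjusted p = 0.1) or with the background subtracted (0.0975). Of 17 genes for the GPI anchor and its linkage to the wall, 0 passed by limma at 80 μg/ml and 1 at 40 μg/ml, beside 3.52% and 23.3% of all genes. At 80 μg/ml 1 had an unadjusted limma p under 0.05 (18.5% of all genes). The gene that passed was *GPI13*, an ethanolamine phosphate transferase gene, at -0.05 ± 0.20 at 80 μg/ml and -0.62 ± 0.20 at 40 μg/ml (SD, n = 2 each, limma adjusted p = 0.918 and 0.0398). Its call was lost with no background correction (limma adjusted p = 0.0512), with the background subtracted (0.0867), without replicate 1 of 40 μg/ml (0.101) and with either replicate of 80 μg/ml left out (0.0849). The median log2 ratio of the GPI list was -0.05 at 80 μg/ml and -0.04 at 40 μg/ml. None of the 73 genes on these 7 lists passed between the doses by limma, and 13 had an unadjusted p under 0.05, against 20.9% of all genes. *FLO5*, *PAU23*, *YGP1*, *PAU2*, *TUP1* and *PMT2* are named here beyond the rule for named genes, after their values were seen.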

How the data were processed

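Per the labels and the study's methods, the authors labeled cDNA of treated and untreated cells with Cy5 or Cy3, hybridized both to spotted genome arrays and quantified the images in MagicTool. The deposited intensity files hold foreground and background brightness of 6688 features per array (85 blank, 23 control) without normalization. Of the 2 genome copies that the methods give for an array, 1 value per feature is on file. The authors also deposited a table of signed fold changes, a score here, which was found to hold red over green total signal (r = 1 on each array with the log2 ratios of the intensities). Its normalization is not given in the sources used here, and the medians of its columns lay between -0.205 and 0.108 on the log2 scale. It served as an alternative for 6377 genes.

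In limma 3.58.1 (R 4.3.3), the normexp correction (offset 50) was applied to mean intensities, followed by a loess fit per array that gave blank and control spots no weight. The sign was turned for arrays on which Cy3 marked the treated cDNA, and the mean was taken over spots of a gene and then over each dye-reversal pair. Each dose was tested against 0, and 80 against 40 μg/ml, with lmFit and eBayes over 4 replicates. Both doses shared 1 estimate of the spread (2 residual and 5.66 prior degrees of freedom), and the Benjamini-Hochberg adjustment covered all 6388 genes. The number of biological replicates, 2 per dose, limits the precision. The brightness above blank spots is a descriptive measure. RefSeq locus tags matched 5849 of the gene names and were used for names and neighbors only, since the files name no genome build, and no probe sequences were used here.

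The 10 members, the 7 lists (73 genes) and the alternatives were chosen with earlier results of these data known. Genes named are the members, up to 3 per list with the largest mean ratio among those that passed at either dose, *TIP1* and *DAN4*, and the 3 genes nearest to each of the 3 members with the largest ratios. Alternatives changed the background correction, the normalization, the signal, the filter on dim spots, the spread, the replicates and the replicate block. The calculation was tested on simulated data.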

Additional observations from a re-analysis of the deposited data

Results flagged for a closer look

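Among the 4 arrays of a dose, 2 values of the mannoprotein genes stood apart from the other 3 by Dixon's criterion. *TIR2* had a log2 ratio of 1.76 on array A of replicate 1 at 80 μg/ml (treated cDNA in Cy3), where the gap to the nearest array made up 0.839 of the range. *TIR1* had -1.05 on array B of replicate 1 at 40 μg/ml (treated cDNA in Cy3), where the gap made up 0.92 of the range. Of 20 sets of 4 arrays examined, chance flags about 1 in 20, and arrays of a dye reversal share their RNA and are not independent.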

How the results depend on the processing

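Of the 10 mannoprotein genes, 1 passed at 80 μg/ml, 0 at 40 μg/ml and 0 between the doses. At 80 μg/ml the count was 0 with the background subtracted, 0 by the criteria of the methods, and 0 among the 6 members left of the 991 genes kept by a filter on dim spots (brighter, on each array, than 95% of blanks). It was 2 (*CWP1* and *TIR1*) with the arrays scaled to 1 spread (23.4% of all genes passed), with each dose fitted alone (22.2%) and with the replicate block (7.34%). Leaving out 1 replicate changed which genes passed at each dose and between the doses. Without replicate 1 of 80 μg/ml the ratio at that dose was -1.17 for *CWP1* and -1.15 for *TIR1*. Without replicate 2 it was -0.91 and -0.54. At 40 μg/ml *CWP1* had -0.70 without replicate 2 and *SPI1* had -0.77 without replicate 1. The difference of *TIR1* between the doses was -1.23 without replicate 1 of 40 μg/ml. The spread of a dose left with 1 replicate was taken from the other dose. Between the doses, 2 genes passed with the arrays scaled to 1 spread (*CWP1* at -0.98 and *TIR1* at -1.26), as did 592 of all 6388 genes. Equal replicate numbers are not tied by the labels, and their deviations correlated at -0.136 across genes. With the replicate block 469 of all genes passed at 80 μg/ml, 1777 at 40 μg/ml and 440 between the doses, against 225, 1489 and 9 without it. With the numbers crossed in the replicate block, an alternative added after seeing the data, 2 members passed at 80 μg/ml, 0 at 40 μg/ml and 1 between the doses, and 702, 2127 and 830 of all genes.

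At each dose, the fit of that dose alone gave the same result as the fits without either replicate of the other dose. The tallies of alternatives at a single dose therefore count this result more than once. *CWP1* at 80 μg/ml was between -1.32 and -0.91 in 15 alternatives and passed in 11. It did not pass with the background subtracted (limma adjusted p = 0.173), with the filter on dim spots (0.0658) or with 1 of its 2 replicates (0.0876 and 0.361). Across the alternatives tested with limma, 7 to 1496 of all genes passed at 80 μg/ml, 102 to 3059 at 40 μg/ml and 0 to 2339 between the doses, and the cause was not tested. The criteria of the methods, without limma, were met by 15 and 24 genes at 80 and 40 μg/ml. They were applied to the ratios normalized here, whereas the paper used ratios of total signal, so that these counts are not the paper's. The median of all genes moved by over 0.1 only with the filter on dim spots, to -0.206 at 40 μg/ml and 0.176 between the doses.

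The sign of small ratios changed. At 80 μg/ml, median centering gave -0.067 for *CWP2* and -0.022 for *SPI1*, the deposited ratios gave -0.062 for *CWP2*, and *CCW12* was 0.0004 with the background subtracted and 0.013 with total signal. Leaving out replicates gave -0.086 to 0.14 for *CWP2*, -0.032 to 0.98 for *TIR2* and -0.13 to 0.13 for *CCW12*. At 40 μg/ml, median centering gave -0.060 for *TIR1*, -0.060 for *CCW12* and -0.0071 for *SED1*, and leaving out replicates gave -0.31 to 0.39 for *TIR1*, -0.15 to 0.024 for *TIR2*, -0.13 to 0.29 for *TIR3*, -0.0035 to 0.33 for *SED1* and -0.77 to 0.027 for *SPI1*. Between the doses, *TIR4* was 0.062 with the deposited ratios and *CCW12* 0.021 with median centering, and *SED1* was 0.086 with median centering, 0.0053 with scaled arrays and 0.0081 with the deposited ratios. Leaving out replicates gave -0.097 to 0.32 for *TIR3*, -0.12 to 0.0082 for *TIR4* and -0.20 to 0.14 for *SED1*.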
